A study of Mesocricetus auratus with 8 samples.

Results

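The genes described here are 10 helix-loop-helix regulators of myogenesis, read in cultured satellite cells (SCs), the stem cells of skeletal muscle, from the Syrian hamster before and after cold exposure. They were found by gene symbol in the deposited table and comprise 4 ID genes (Id1, Id2, Id3 and Id4), 3 E-protein genes (Tcf3, Tcf4 and Tcf12) and 3 genes for bHLH repressors (Twist1, Twist2 and Msc). All 10 were among the 17590 genes with values, of 31581 entries in the table, and all 10 had enough reads to be tested.

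SCs were prepared from hindlimb muscle of wild-type male hamsters (Slc:Syrian, 8 to 16 weeks old) by preplating, and were kept in growth medium on Matrigel for 48 h. All of the cultures then spent 24 h at 37 °C in the same medium with 100 mM HEPES, and total RNA was taken either at that point (control, 37 °C, n = 4 libraries) or after a further 24 h at 4 °C (cold, n = 4 libraries). The cold libraries were therefore also 24 h older, and cold cannot be told apart from time in culture. The control labels name 3, 4, 5 and 6 days at 37 °C for replicates 1 to 4, whereas all 4 titles name day 3.

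Libraries held 16530747 to 18533801 expected read counts. The first principal component (54.5% of the variance) set replicates 1 and 2 apart from 3 and 4, among control and cold libraries alike, and the second (17.9%) separated cold from control. Libraries of the same number deviated together, so values from an edgeR model that also holds the replicate number (the blocked fit) are given where they matter. Of 12 SC and myoblast markers, 11 had a mean of at least 1 TPM (a level scaled to library depth and corrected for transcript length). Pax7 lay between 10.8 and 16.1 TPM, Myod1 between 424 and 694 TPM and Des between 724 and 924 TPM. Pax3 stayed at 0.19 to 0.62 TPM, and Chodl ran from 0.38 to 3.05 TPM. At an adjusted p under 0.05 the blocked edgeR fit called 5 of the 12 (41.7%, against 5.33% of all genes tested). Of these, 4 were lower and 1 was higher in the cold (4.07% and 1.26% of all genes). Of 6 leukocyte markers, Cd68 (23.3 to 52.0 TPM), Cd14 (14.95 to 48.97 TPM) and Csf1r (2.31 to 4.55 TPM) were read in every library, while Ptprc, Adgre1 and Itgam did not exceed 0.07 TPM. The 9 endothelial markers summed to 2.96 to 5.65 TPM, with Cdh5 the highest at 1.14 to 2.19 TPM. Fibroblast-type genes were also read, with 11 of 12 at a mean of at least 1 TPM, among them Col1a1 at 129 to 192 TPM and Pdgfra at 7.21 to 14.9 TPM.

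Myogenic regulators such as MyoD and myogenin bind DNA through a basic helix-loop-helix (bHLH) domain, and do so well only as dimers with a ubiquitous bHLH partner, an E-protein. Tcf3 encodes the E-proteins E12 and E47, Tcf4 encodes E2-2, and Tcf12 encodes HEB. Tcf4 here is this bHLH gene and not Tcf7l2, the Wnt effector that shares its old name. ID proteins carry the helix-loop-helix but lack the basic region, so they take up E-proteins in dimers that cannot bind DNA, and they are known for holding myoblasts in an undifferentiated state. Twist1, Twist2 and musculin (Msc, also MyoR) do bind DNA, and oppose MyoD by competing for E-proteins or for its sites.

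The ID genes were the most abundant of the 10 by TPM, and the repressor genes and Id4 the least. Id2 had a mean of 607.6 TPM over the 8 libraries (range 537 to 690), above 98.2% of the 12506 genes tested. Id3 followed at 440.7 TPM and Id1 at 247.6 TPM. The order Id2, Id3, Id1 held in 8 of 8 libraries, with ranges that did not overlap. Id4 stood far below the other ID genes, at 8.54 TPM (range 7.34 to 9.20), and gave 0.686% of the summed ID TPM in the controls.

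Tcf3 led the E-protein genes at 70.03 TPM (range 61.3 to 76.7). Tcf4 and Tcf12 were level, at 43.0 and 42.4 TPM, with Tcf4 above Tcf12 in 4 of 8 libraries. Tcf3 was above both in 8 of 8 libraries. Among the repressors, Msc (20.1 TPM) and Twist2 (17.6 TPM) had overlapping ranges, and Msc was the higher in 7 of 8 libraries. Twist1 was the lowest of all 10, at 3.74 TPM (range 2.68 to 5.64).

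Part of this order rests on the transcript lengths behind the TPM. Without correction for length, Id3 had the most reads, a mean of 3636 expected counts per library, followed by Tcf4 with 3397, Tcf3 with 2206, Id1 with 2002 and Id2 with 1902. Each TPM of Id2 stood on 3.13 counts, against 8.09 and 8.25 for Id1 and Id3. Among the 10974 genes with at least 1 TPM in every library, the median was 29.2 counts per TPM, and Id2 stood at percentile 1.2. The first place of Id2 by TPM therefore depends on a short gene model. The model behind the TPM is not given in the sources used here. Tcf12 had expected counts with decimals in all 8 libraries, as arises when reads are divided between genes, so its level is uncertain. The other 9 genes had whole counts throughout.

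**Figure D1:**
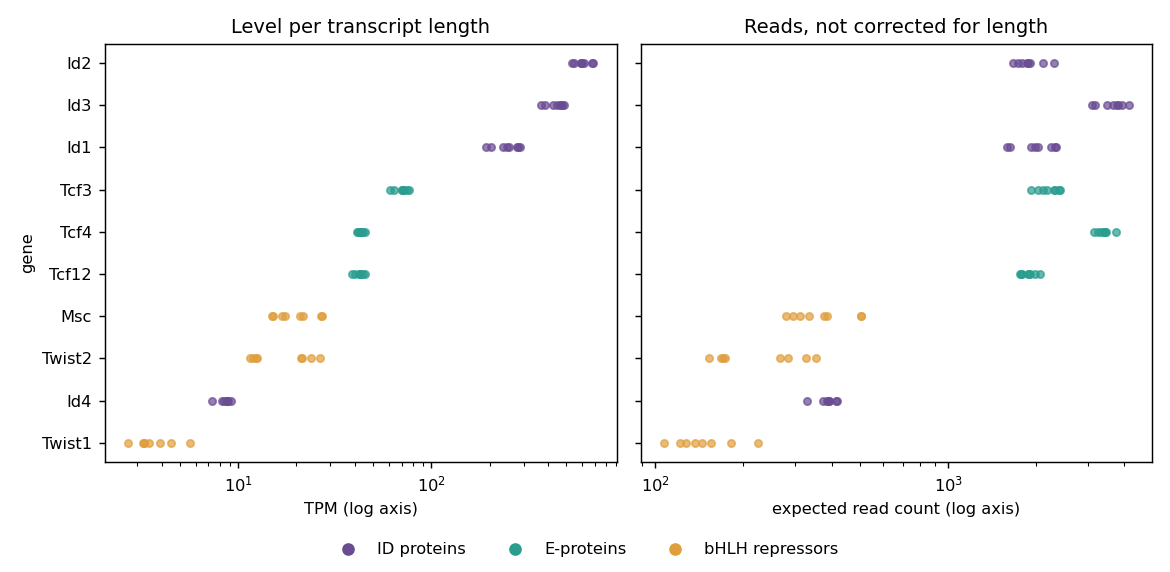
Levels of the 10 genes in each of the 8 libraries, as TPM (left) and as read counts (right), both on log axes, with 1 point per library. Id2 is first by TPM, with a mean of 607.6, but rank 5 by read count, with a mean of 1902, and Id4 and the repressor genes are low on both scales.

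The main comparison asked whether these regulators changed when SCs were taken from 37 °C to 4 °C for 24 h. No member passed an adjusted p of 0.05. With edgeR's quasi-likelihood test, 0 of 10 were called, where 0.072% of all genes tested were called, and 1 of 10 had an unadjusted p under 0.05, as did 6.7% of all genes. The blocked fit called 0 of 10, where it called 5.33% of all genes, and DESeq2 also called 0 of 10, against 0.945% of the genes it tested. The median log2 fold change of the 10 was 0.01, as it was over all genes tested (0.01). In bulk RNA, fewer cells of a type and less RNA per cell cannot be told apart.

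The estimates were narrow enough to bound the changes. The approximate 95% intervals of all 10 log2 fold changes lay between −0.66 and 0.69, inside a fold of 2 in either direction, and the widest was that of Twist2. The narrowest were those of the E-proteins, with that of Tcf4 running from −0.11 to 0.13 (0.925-fold to 1.09-fold).

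Among the ID genes, Id2 came nearest to a change. It had 549, 597, 616 and 537 TPM in control replicates 1 to 4 and 676, 593, 690 and 603 TPM in cold replicates 1 to 4. The cold value was the higher in 3 of 4 pairs of the same number, and the groups overlapped. Control libraries averaged 575 ± 37.7 TPM and cold ones 640 ± 49.5 TPM (SD, n = 4 each). EdgeR fitted this as 0.16 ± 0.07 (SE) on the log2 scale, at an adjusted p of 0.732, and Id2 was the member under 0.05 before adjustment. Blocking left the size at 0.16 and brought edgeR's adjusted p to 0.0775. The blocked value moved with the pairs. It was 0.10 on the log2 scale without pair 1 (edgeR adjusted p = 0.474) and 0.21 without pair 2 (adjusted p = 0.0371). Without pairs 3 and 4 edgeR's adjusted p was 0.204 and 0.0932, and DESeq2 with the block gave 0.279.

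Id1 had 289, 279, 254 and 193 TPM in control replicates 1 to 4, and 236, 203, 282 and 246 TPM in cold replicates 1 to 4. The pairs moved in opposite directions. Cold over control was 0.817 and 0.729 for replicates 1 and 2, and 1.11 and 1.28 for replicates 3 and 4, a difference between pairs that was not tested. The group means, 254 ± 43.2 and 242 ± 32.3 TPM (SD, n = 4 each), differed by less than the spread between replicates (log2 fold change −0.09, 95% interval −0.41 to 0.23, edgeR adjusted p = 0.999). In the blocked fit the sign of the Id1 value turned when pair 1 was left out (0.0043 on the log2 scale) and when pair 2 was (0.06).

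Id3 had 465, 487, 473 and 370 TPM in control replicates 1 to 4 and 448, 426, 470 and 388 TPM in cold replicates 1 to 4. Replicate 4 was the lowest in both groups, and the cold value was the lower in 3 of 4 pairs. EdgeR gave Id3 a log2 fold change of −0.07 (95% interval −0.30 to 0.17, adjusted p = 0.999). This value was −0.16 without control replicate 4 and −0.0153 without either control replicate 2 or cold replicate 4. Id4 was the ID gene that differed least between control libraries, with 9.20, 8.88, 8.77 and 8.42 TPM in replicates 1 to 4. The cold values were 8.24, 8.71, 8.73 and 7.34 TPM, lower in 4 of 4 pairs, as for 10.5% of all genes tested. The fitted change was −0.12 on the log2 scale (95% interval −0.30 to 0.07, edgeR adjusted p = 0.962). It was −0.0632 without cold replicate 4 and −0.1569 without cold replicate 2.

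**Figure D2:**
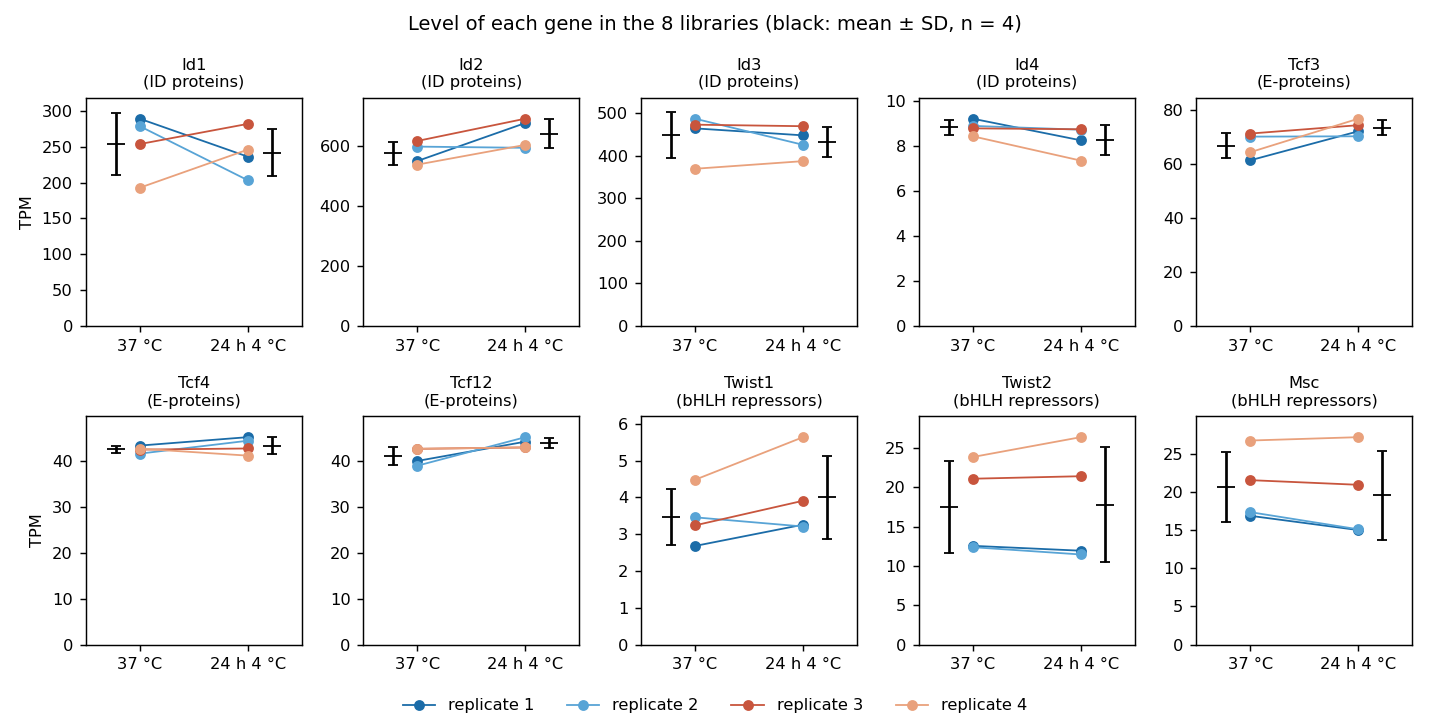
TPM of each of the 10 genes in control (37 °C) and cold (24 h at 4 °C) libraries, with lines joining libraries of the same replicate number and black bars for the mean ± SD (n = 4). Control and cold values overlap in 9 of the 10 genes, and the Id1 lines fall for replicates 1 and 2 and climb for replicates 3 and 4.

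The E-protein genes had slightly higher means in the cold, and none passed the adjusted test. Tcf3 had 61.3, 70.1, 71.2 and 64.3 TPM in control replicates 1 to 4 and 72.1, 70.2, 74.3 and 76.7 TPM in cold replicates 1 to 4. The cold value was the higher in 4 of 4 pairs, as for 12.8% of all genes tested, though by only 1.002-fold in replicate 2. EdgeR put Tcf3 at 0.12 ± 0.06 (SE) on the log2 scale, with an adjusted p of 0.849, or of 0.198 when blocked.

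Tcf12 was the only member whose control and cold values did not overlap, as for 4.68% of all genes tested (2.27% with all cold values above all control values). It had 39.96, 38.9, 42.6 and 42.6 TPM in control replicates 1 to 4 and 44.2, 45.1, 42.9 and 42.9 TPM in cold replicates 1 to 4. The gap was narrow, with cold over control at 1.007 in replicate 3 and 1.008 in replicate 4. The exact two-sided permutation test on TPM gave p = 0.0286, the smallest that 4 libraries against 4 allow, and Tcf12 was the only one of the 10 to reach it. Leaving out any cold library raised this exact p, to between 0.0857 and 0.143. EdgeR's estimate was 0.08 ± 0.04 (SE) on the log2 scale, at an adjusted p of 0.881. It was 0.05 without cold replicate 2, and the blocked value was 0.04 without pair 2.

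Tcf4 was the steadiest of the 10. It had 43.4, 41.7, 42.5 and 42.8 TPM in control replicates 1 to 4 and 45.3, 44.5, 42.8 and 41.2 TPM in cold replicates 1 to 4. Only 6.4% of the genes tested had a log2 fold change as small as its 0.01 (edgeR adjusted p = 0.999), and its sign turned with single libraries left out.

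The genes for the bHLH repressors showed the widest spread between libraries and no called difference between conditions. Twist2, which is expressed in mesenchymal cells and restrains muscle and bone differentiation, had 12.6, 12.4, 21.1 and 23.9 TPM in control replicates 1 to 4 and 11.9, 11.5, 21.4 and 26.4 TPM in cold replicates 1 to 4. Replicates 3 and 4 were high in both groups. The conditions were nearly level, at 17.5 ± 5.89 and 17.8 ± 7.34 TPM (SD, n = 4 each), and edgeR's log2 estimate was 0.02, whose interval ran from −0.66 to 0.69, or from −0.17 to 0.18 when blocked. The sign of this value changed between settings.

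Msc, the gene for musculin, had 16.9, 17.3, 21.5 and 26.7 TPM in control replicates 1 to 4 and 14.99, 15.1, 20.9 and 27.2 TPM in cold replicates 1 to 4. It was again highest in replicate 4 of both groups. The Msc log2 fold change was −0.09 (95% interval −0.54 to 0.36, edgeR adjusted p = 0.999), and the cold value was the lower in 3 of 4 pairs. Single libraries moved it: it was 0.04 without control replicate 4, 0.0149 and 0.0036 without cold replicates 1 and 2, and −0.29 without cold replicate 4. Twist1, a regulator of mesoderm and of mesenchymal transition, had 2.68, 3.46, 3.24 and 4.48 TPM in control replicates 1 to 4 and 3.26, 3.21, 3.91 and 5.64 TPM in cold replicates 1 to 4. Its log2 fold change of 0.19 was the largest of the 10 in size, but its SE was 0.20 (edgeR adjusted p = 0.999, or 0.357 when blocked). Cold over control was 1.22, 0.928, 1.21 and 1.26 in pairs 1 to 4. The value was −0.02 without cold replicate 4 alone, which keeps its high control partner, and 0.11 in the blocked fit without pair 4.

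**Figure D3:**
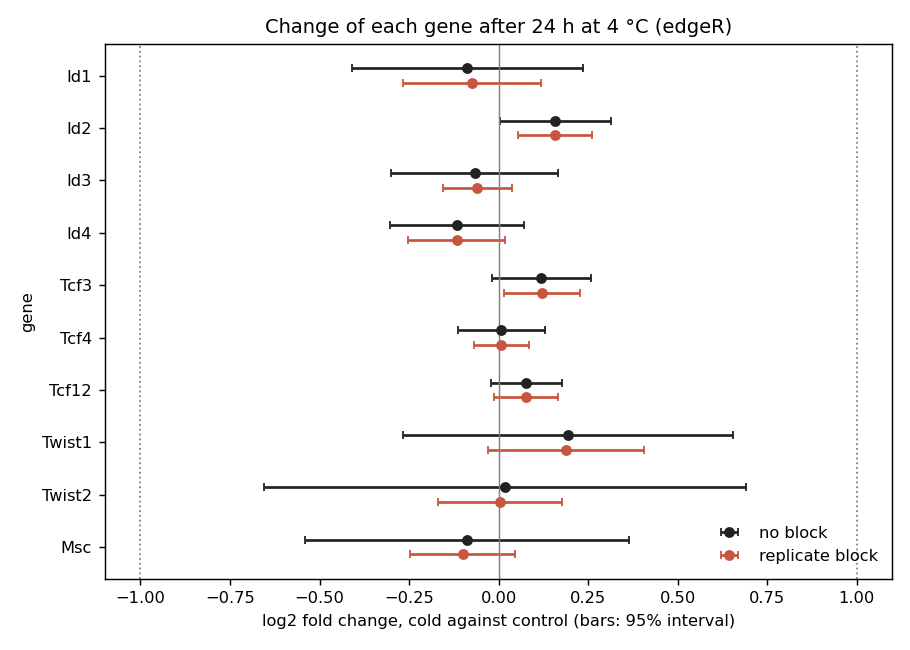
Log2 fold change of cold against control for each gene, from edgeR without a block (black) and with the replicate number as a block (red), with bars for the 95% interval and dotted lines at a fold of 2. The unblocked intervals lie between −0.66 and 0.69, and the block narrows those of Twist1, Twist2 and Msc most.

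The repressor genes followed the replicate number more than the temperature. Of the sum of squares of log2(TPM + 0.1) over the 8 libraries, the replicate number held 98.9% for Twist2, 95.7% for Msc and 82.5% for Twist1, against 62.8% for the median of all genes tested. The condition held 0.00215%, 2.29% and 9.61%, in the same order, against 7.5% for the median of all genes. Id3 resembled them in this respect, with 84.6% by replicate number, but in the opposite sense, since its replicate 4 was low. The E-protein gene Tcf12 stood at the other end, with 4.22% by replicate number and 51.5% by condition. These are shares of a small spread, from 38.9 to 45.1 TPM over the 8 libraries. Condition held 48.3% for Tcf3 and 42.9% for Id2.

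The mean of replicates 3 and 4 over that of replicates 1 and 2 was 1.92 for Twist2, 1.498 for Msc and 1.37 for Twist1. The median of all genes tested was 1.05, and 3.06% of genes had a ratio at or above that of Twist2. These sides were seen in the data and are no groups of the study, so no test was made. The share was 8.16% for Msc and 11.8% for Twist1. Markers of other cells also differed between these sides. The summed TPM of 12 fibroblast markers was 1304 to 1421 in the libraries of replicates 1 and 2 and 1564 to 1883 in those of replicates 3 and 4, led by Thy1. Of the 11 with a mean of at least 1 TPM, 8 were higher in every library of replicates 3 and 4, while Col1a1, Col1a2 and Postn overlapped and were lowest in replicate 3 of both groups. The summed TPM of 17 myocyte markers was 7668 to 15680 in the former and 5178 to 8877 in the latter. Of the 17, 3 were lower in every library of replicates 3 and 4, and 14 overlapped. Within each condition taken separately, 12 of the 17 were lower in both libraries of replicates 3 and 4 than in both of replicates 1 and 2. The summed TPM of 6 leukocyte markers was 40.9 to 49.5 in the former and 75.3 to 105 in the latter, mostly from Cd68 and Cd14, with Ptprc and Adgre1 at 0.03 TPM or less. The part of these markers in the spread of Twist2, Msc and Twist1 was not tested.

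**Figure D4:**
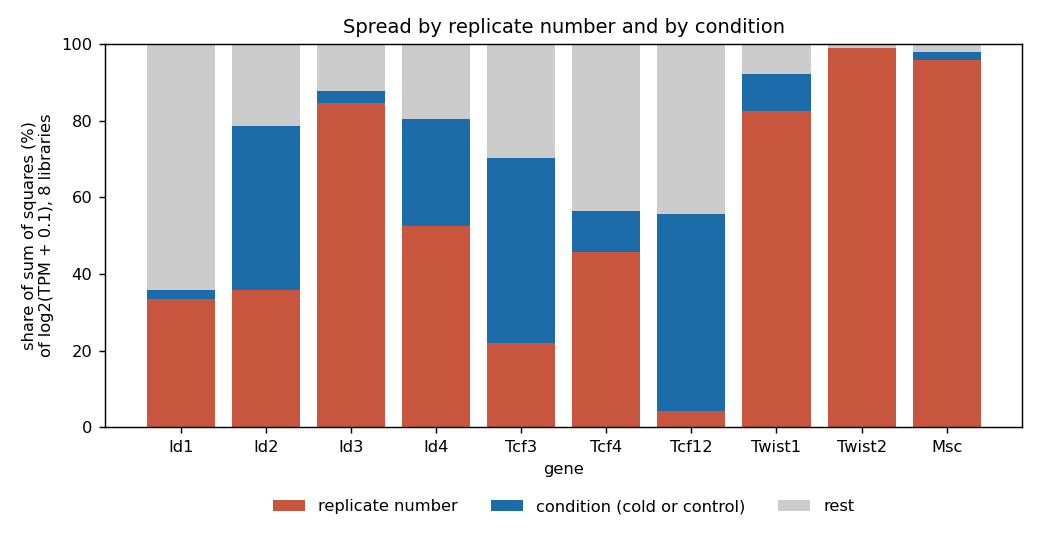
Share of the sum of squares of log2(TPM + 0.1) over the 8 libraries that lies between replicate numbers (red), between conditions (blue) and in the rest (grey), for each gene. Replicate number takes 98.9% for Twist2 and 95.7% for Msc, and condition takes its largest share, 51.5%, for Tcf12.

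The 4 myogenic bHLH genes, whose products dimerise with E-proteins, were read alongside, and no test was made of a difference between them and the 10 genes above. Unblocked edgeR called 0 of 4 at an adjusted p of 0.05 (1 of 4 at an unadjusted p under 0.05) and DESeq2 called 0, while blocked edgeR called 3 of 4 lower, where 4.07% of all genes tested were lower. Myog, the gene for myogenin, which drives terminal differentiation, had 1008, 1016, 449 and 480 TPM in control replicates 1 to 4 and 564, 628, 314 and 292 TPM in cold replicates 1 to 4. Cold over control was 0.560 to 0.698 across the 4 pairs, yet the groups overlapped, since replicates 1 and 2 stood higher in both. EdgeR gave −0.74 on the log2 scale (adjusted p = 0.824), or −0.71 when blocked (adjusted p = 2.96e-09). Myf6 (MRF4), a late regulator, had 20.5, 18.96, 11.02 and 9.96 TPM in control replicates 1 to 4 and 7.95, 10.0, 8.84 and 7.23 TPM in cold replicates 1 to 4. Unblocked edgeR gave −0.86 ± 0.27 (SE) on the log2 scale (adjusted p = 0.462), and blocked edgeR −0.83 (adjusted p = 0.000614).

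Myod1 was lower by a log2 fold change of −0.13 when blocked (edgeR adjusted p = 0.01997, against 0.999 unblocked), and ran from 463 to 693 TPM in control and from 424 to 647 TPM in cold libraries. Myf5, which marks early myoblasts, was the one not called. It had 99.9, 103, 182 and 202 TPM in control replicates 1 to 4 and 111, 121, 180 and 205 TPM in cold replicates 1 to 4, so that it was high in replicates 3 and 4, as Twist2 and Msc were. EdgeR gave it 0.07 on the log2 scale (95% interval −0.51 to 0.64, adjusted p = 0.999). The list of myocyte markers shares Myog with these genes. All 17 of the 17 tested, Myog included, had log2 fold changes below 0, as did 47.1% of all genes tested. Blocked edgeR called 17 of them (4.07% of all genes called lower), unblocked edgeR 2 (0.072% of all genes) and DESeq2 9 (0.945%). Their summed TPM, with Myog, was 8118 to 15680 in control and 5178 to 9001 in cold libraries. The part of the other markers in the values of Myog, Myf6 and Myod1 was not tested.

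Summed as TPM, the ID transcripts stood above the E-protein transcripts in every library. Summed read counts, which are not corrected for length, were higher for the ID genes in 5 of 8. The ratio of summed TPM was 9.07, 9.11, 8.64 and 7.40 in control replicates 1 to 4 and 8.47, 7.70, 9.06 and 7.73 in cold replicates 1 to 4. It was lower in the cold in replicates 1 and 2 and higher in replicates 3 and 4, and the means were 8.55 ± 0.797 and 8.24 ± 0.654 (SD, n = 4 each). In expected counts the same ratio was 1.09 ± 0.110 and 1.03 ± 0.0801 (SD, n = 4 each). It was below 1 in control replicate 4 (0.928), cold replicate 2 (0.965) and cold replicate 4 (0.9749). Each TPM of Tcf3, Tcf4 and Tcf12 stood on 31.5, 79.0 and 44.3 counts, and each TPM of Id1 to Id4 on 8.09, 3.13, 8.25 and 45.3. Counts therefore weigh the E-protein genes more heavily than Id1, Id2 and Id3. The TPM ratio is one of transcripts and the count ratio one of reads, and neither says anything of protein.

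The summed E-protein TPM was 145 to 156 in control and 160 to 162 in cold libraries, with no overlap. For single genes the share without overlap was 4.68%, or 2.27% with all cold values above all control values. A share of single genes is no background for this sum, which holds Tcf12, itself without overlap. In counts, which are not scaled to depth, the same sums ran from 7032 to 7522 and from 7523 to 8187, so that 1 read separated the groups, and Tcf12 with its uncertain level is part of both sums. The summed TPM of Myod1, Myf5, Myog and Myf6 over that of the E-protein genes was 12.4, 12.2, 8.16 and 7.72 in control replicates 1 to 4 and 7.97, 8.80, 6.84 and 5.77 in cold replicates 1 to 4, lower in 4 of 4 pairs. The ID genes over the same myogenic genes were 0.731, 0.749, 1.06 and 0.959 in control replicates 1 to 4 and 1.06, 0.875, 1.33 and 1.34 in cold replicates 1 to 4, higher in 4 of 4 pairs. Of single genes tested, 10.5% were lower and 12.8% higher in 4 of 4 pairs. Most of the shift in the myogenic sum lay in Myog: in the cold the mean sum differed by −335 TPM and mean Myog by −288.9 TPM. The mean ID sum differed by 37.5 TPM and the mean E-protein sum by 10.2 TPM. No p is given for these sums, since the genes in them were chosen with results known.

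**Figure D5:**
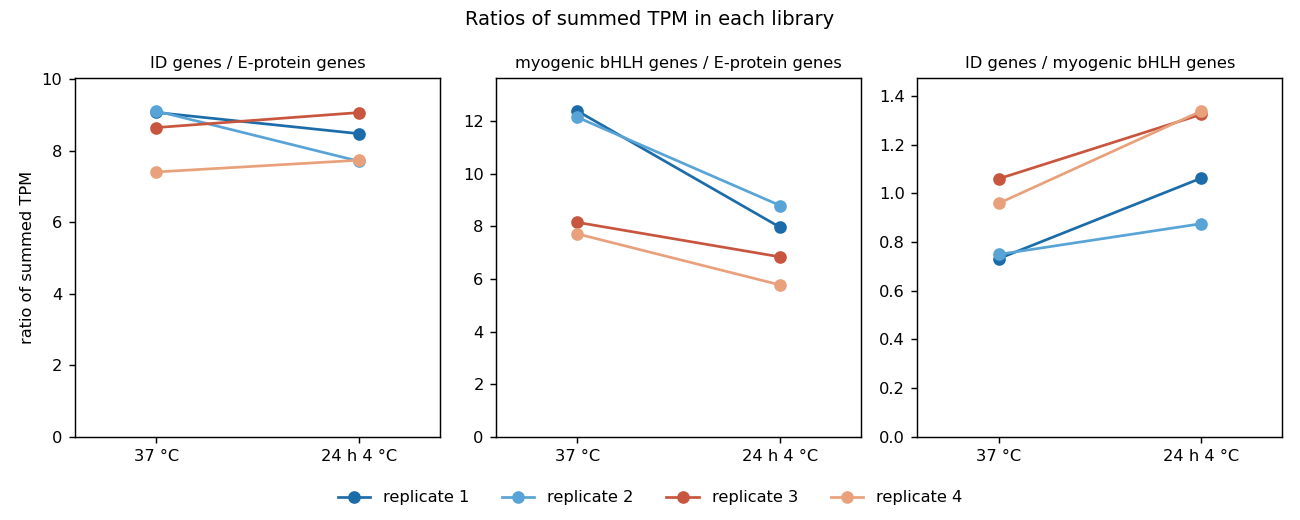
Ratios of summed TPM in each library, with lines joining libraries of the same replicate number, for ID over E-protein genes (left), myogenic bHLH over E-protein genes (middle) and ID over myogenic bHLH genes (right). The first has no common direction, the second is lower and the third is higher in the cold in 4 of 4 pairs.

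Genes around these regulators were read from lists. BMP signals through SMAD proteins are known inducers of the ID genes, and of the 27 BMP and SMAD pathway genes tested, unblocked edgeR called 0 (2 at an unadjusted p under 0.05), DESeq2 called 1 and blocked edgeR called 1. That is 3.7% of the list in the blocked fit, against 5.33% of all genes. DESeq2 called 0.945% of the genes it tested, and 6.7% of all genes had an unadjusted p under 0.05 in unblocked edgeR. The called gene was Chrd, for the BMP antagonist chordin, which had 15.7, 15.7, 12.6 and 13.99 TPM in control replicates 1 to 4 and 8.65, 9.28, 10.6 and 10.5 TPM in cold replicates 1 to 4. The groups did not overlap, and edgeR gave −0.61 ± 0.11 (SE) on the log2 scale (adjusted p = 0.102, or 8.56e-05 when blocked). Bmp2 was at 0.965 ± 0.458 and 1.21 ± 0.203 TPM (SD, n = 4 each; edgeR adjusted p = 0.999). Fst, for follistatin, was the most abundant of the list at 142 TPM, with a log2 fold change of 0.06 (edgeR adjusted p = 0.999). The median log2 fold change of the list was 0.03.

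Of 21 other bHLH genes tested, unblocked edgeR called 0 (2 at an unadjusted p under 0.05), DESeq2 called 0, and blocked edgeR called 3, 2 of them lower and 1 higher (4.07% and 1.26% of all genes). Hes6, a HES-family gene that favours differentiation, had a log2 fold change of −0.34 with the block (edgeR adjusted p = 0.00112). Scx, for the tendon regulator scleraxis, was the most abundant at 182 TPM and had −0.28 (edgeR adjusted p = 0.00248 with the block). Myc was the gene that was higher, by 0.21 on the log2 scale (edgeR adjusted p = 0.0104 with the block).

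Of 18 genes for E-box repressors and cofactors of E-proteins or MyoD, unblocked edgeR called 0, with 4 at an unadjusted p under 0.05 (6.7% of all genes). DESeq2 called 1 (0.945% of all genes). Blocked edgeR called 2, both lower, or 11.1% of the list against 5.33% of all genes (4.07% lower). Cbfa2t3, for an ETO-family corepressor that binds E-proteins, had 3.79, 3.68, 2.27 and 2.53 TPM in control replicates 1 to 4 and 1.59, 1.73, 1.32 and 1.54 TPM in cold replicates 1 to 4. The groups did not overlap, and edgeR gave −1.01 ± 0.20 (SE) on the log2 scale (adjusted p = 0.151, or 2.25e-06 when blocked). Hdac9, for a class IIa deacetylase that represses MEF2, had a log2 fold change of −0.998 (edgeR adjusted p = 0.344, or 0.000541 when blocked) at a mean of 1.26 TPM. Hdac1 was the most abundant, at 187 TPM, with a log2 fold change of 0.07 (edgeR adjusted p = 0.958).

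None of the 10 genes for turnover of ID proteins was called by edgeR without the block (0 at an unadjusted p under 0.05) or with it, and DESeq2 called 0, where these called 0.072%, 5.33% and 0.945% of all genes. Usp1, the deubiquitinase that stabilises ID proteins, had a log2 fold change of 0.13 (edgeR adjusted p = 0.880). Skp2, an F-box protein of a ubiquitin ligase, had 0.12 (adjusted p = 0.844), and the proteasome subunit gene Psmd4 had 0.02 at 240 TPM (adjusted p = 0.999).

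The genes whose centred log2(TPM + 0.1) profile over the 8 libraries lay nearest to that of the most abundant member of each kind were sought among 10486 genes. Nearest to Id2 were Ikbkb, Smtn and Ehmt2, with root mean square differences of 0.0422, 0.0456 and 0.0498 on the log2 scale, where Id2 itself varied by 0.119. For Tcf3 they were Wdr46, Lsg1 and Ddx41, at 0.0420 to 0.0428 against 0.0991 for Tcf3 itself. For Msc, which varied by 0.318, they were Eng, Znf623 and Prr5, at 0.0402, 0.0495 and 0.0669. The profiles rest on 8 libraries that share their replicate numbers, and no test was made of the likeness.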

How the data were processed

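Each library was read 150 bp paired-end by the study. HISAT and HISAT2 stand in the submitters' processing notes, and the counting program, build and annotation are not given in the sources used here. The authors deposited expected counts per gene (not whole where reads were divided), TPM scaled within each library, and a normalized count (a signal scaled by the authors with 1 factor per library) that was not used. All per-sample columns were mapped by library name. All 17590 gene identifiers matched the RefSeq gene table (BCM_Maur_2.0), used for names only.

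Expected counts were rounded and fitted over all genes with edgeR 4.0.16 in R 4.3.3 (filterByExpr, TMM, quasi-likelihood F test, Benjamini-Hochberg over 12506 genes). Calls used an adjusted p under 0.05. The standard error is the absolute log2 fold change over the square root of F. TPM of single genes were compared by an exact two-sided permutation test over 70 arrangements (smallest p 0.0286). The count code was tested on simulated data. Replicate numbers are shared between groups, and same-numbered libraries deviated together (r = 0.609 to 0.659 across genes, which are not independent). Correlations were nearly as high between numbers 1 and 2 (0.569 and 0.591), lower between 3 and 4 (0.432 and 0.472), and −0.553 to −0.609 otherwise. Every same-number value was over 0.1, so the replicate number was also fitted as a block. The labels do not say what a replicate number marks. The paper calls the RNA-seq replicates biological (n = 4 per group) but does not say whether each came from a separate animal or isolation. The p-values therefore cover the spread between these libraries. Alternatives were DESeq2 1.42.0, limma 3.58.1 on log2(TPM + 0.1) or log2(TPM + 1), other factors and filters, and leaving out libraries. The depth of 16530747 to 18533801 counts per library leaves the lowest gene, Twist1, at 107 to 225 counts.

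The members and lists were chosen with earlier results of these data known. The genes named are the 10 members, the 4 myogenic bHLH genes, and from each list the 2 of largest change with a mean of at least 1 TPM and the most abundant, plus the 3 nearest profiles per kind. Myc was named after its values were seen. Figures used matplotlib 3.10.9.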

Additional observations from a re-analysis of the deposited data

How the results depend on the processing

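The number of members called was 0 in the fits with the replicate block, RLE factors, library totals, DESeq2, either filter, limma on TPM and any single library left out, and 0 to 1 when pairs were left out of the blocked fit. Of 240 log2 fold changes of members under 24 alternatives, 219 kept their sign. The 21 that turned belonged to Twist2 (10), Tcf4 (5), Msc (3), Id1 (2) and Twist1 (1), all with adjusted p of at least 0.732.

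Twist2 had −0.0044 with limma on log2(TPM + 0.1), with or without the filter, −0.0027 with log2(TPM + 1), −0.0109 with DESeq2 and a replicate block, and a mean difference of −0.00441 in log2(TPM + 0.1). With single libraries left out, log2 fold changes ran from −0.2347 to 0.1879 for Twist2, −0.0176 to 0.0322 for Tcf4, −0.2898 to 0.0398 for Msc, −0.0177 to 0.3172 for Twist1, −0.21 to −0.0095 for Id1, −0.161 to −0.0153 for Id3, −0.1569 to −0.0632 for Id4 and 0.0482 to 0.0919 for Tcf12. With pairs left out of the replicate block, Twist2 had −0.0065 without replicate 3 and −0.0735 without replicate 4, Tcf4 had −0.0081 without replicate 2, Id1 had 0.0043 and 0.0575 without replicates 1 and 2, Tcf3 went from 0.1214 to 0.0597 without replicate 4, and Tcf12 from 0.0764 to 0.0405 without replicate 2. With single libraries left out, differences in mean TPM ran from −2.54 to 2.45 for Twist2, −0.005 to 0.878 for Twist1, −3.61 to 0.963 for Msc, −32.0 to 1.07 for Id1 and −42.2 to −0.787 for Id3. The cause was not tested. Members at an exact p under 0.05 numbered 1, or 0 to 2 with single libraries left out (0 without any cold library, and 2, with Tcf3 added, without control replicate 3).

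The number of all genes past both thresholds, 5 in edgeR without a block, was 106 with the replicate block, 91 with DESeq2 and a replicate block, 107 and 105 with the block and RLE factors or library totals, 68 with DESeq2, 8 with library totals, 15 without a filter, 3 with the stricter filter and with limma at a pseudocount of 0.1 or 1, and 9 without the fold threshold. It was 0 to 34 with single libraries left out (34 without control replicate 3) and 88, 101, 135 and 117 with pairs 1 to 4 left out of the block. With all 4 pairs, the replicate block changed no call of a member. Alternatives chosen after seeing the data were DESeq2 with the block, the block with other factors, and the block without each pair. The log2 ratio of ID to E-protein TPM, cold against control, was −0.05, and −0.15 without Id2. Twist1 had the fewest reads of the 10.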
